A study of Mus musculus with 8 samples.

Results

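Genes that make cholesterol, sense its level and move it between cells and organelles were examined in the mouse striatum after deletion of Bcl11b from its projection neurons. The set holds 31 genes named by symbol, and all 31 were found among the 55376 features of the gene count table. RNA sequencing covered 8 mice at 4 months of age, labelled female, of strain C57Bl/129S2/Sv. The authors' methods state that mice of both sexes were used, without giving the sex of the sequenced mice. The 4 D9-Cre-Bcl11b tm1.1Leid mice carried Cre under the D9 regulatory elements of Ppp1r1b, the gene for DARPP-32, which drive it in medium spiny neurons after birth, together with homozygous loxP-flanked Bcl11b. The 4 Cre- mice had the same homozygous floxed Bcl11b but no Cre. Each library came from the dissected left striatum of 1 mouse, so that glia and other neurons, in which the promoter is not meant to act, contribute RNA. The level of a gene is given below in CPM, its count relative to the library total after scaling with the TMM method of edgeR.

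Cholesterol does not cross the blood-brain barrier in useful amounts, and the brain makes its own. Acetyl-CoA is built into mevalonate and then farnesyl diphosphate, farnesyl units are joined to squalene, squalene is closed to lanosterol, and lanosterol is trimmed to cholesterol. When membrane sterol is low, SCAP escorts the SREBP transcription factors out of the endoplasmic reticulum for cleavage, and they switch on the synthesis genes. When sterol is high, INSIG proteins hold SCAP back and oxysterols activate the LXR receptors, which switch on efflux pumps such as Abca1. Astrocytes and myelinating oligodendrocytes are the main producers, and neurons export surplus cholesterol as 24-hydroxycholesterol, made by Cyp46a1.

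Promoter windows, from 250 bases before to 50 after the start of the gene, were given by RefSeq (GRCm38.p6) for 26 of the 31 genes, and no window was used for Sqle, Fdps, Fdft1, Abcg1 and Npc1. Genes with several start sites have several windows, and a gene is counted below where any of its windows holds the letters. The letters of a sterol regulatory element (TCACNCCAC, on either strand) were found for 1 of the 26 genes, Hmgcs1, and for 388 of all 27025 genes with a window (1.44%). CCAAT, the box bound by NF-Y, which works beside SREBP, was found on either strand for 21 of the 26 genes (80.8%) and for 14 of the 15 synthesis enzymes with a window, against 41.1% of all genes. Acat2 was the enzyme without it. GGGCGG, a GC box, was found on either strand for 23 of the 26 genes (88.5%), against 38.2% of all genes. These are letter matches and not bound sites. The shares over all genes took no account of expression in the striatum, whereas all 31 cholesterol genes passed the filter on low counts. A share over expressed genes alone was not computed. Below are the 250 bases before the start of 4 enzymes of the early mevalonate pathway, chosen because their D9-Cre-Bcl11b levels lay on different sides of the Cre- levels. Hmgcs1 (chr13:119690101-119690350, plus strand), Pmvk (chr3:89454291-89454540, plus strand) and Mvk (chr5:114444019-114444268, plus strand) are shown beside Acat2 (chr17:12960726-12960975, minus strand). Capitals mark matches to the sterol regulatory element and to CCAAT or its reverse ATTGG, which do not overlap each other in these windows.
Hmgcs1: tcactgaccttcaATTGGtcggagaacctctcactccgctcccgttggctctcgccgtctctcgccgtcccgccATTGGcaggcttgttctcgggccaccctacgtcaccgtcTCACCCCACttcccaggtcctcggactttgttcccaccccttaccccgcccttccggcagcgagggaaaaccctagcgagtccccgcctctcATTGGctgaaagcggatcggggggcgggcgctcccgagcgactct
Pmvk: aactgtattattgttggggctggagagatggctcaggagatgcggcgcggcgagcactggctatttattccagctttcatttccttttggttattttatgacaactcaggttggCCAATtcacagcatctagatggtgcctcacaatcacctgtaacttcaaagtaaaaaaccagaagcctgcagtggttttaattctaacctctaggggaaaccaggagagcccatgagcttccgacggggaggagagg
Mvk: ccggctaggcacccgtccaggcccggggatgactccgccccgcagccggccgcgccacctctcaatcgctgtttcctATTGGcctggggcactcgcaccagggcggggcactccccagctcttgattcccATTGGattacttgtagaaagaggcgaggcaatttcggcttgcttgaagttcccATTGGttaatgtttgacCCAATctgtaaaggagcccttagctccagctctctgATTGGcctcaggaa
Acat2: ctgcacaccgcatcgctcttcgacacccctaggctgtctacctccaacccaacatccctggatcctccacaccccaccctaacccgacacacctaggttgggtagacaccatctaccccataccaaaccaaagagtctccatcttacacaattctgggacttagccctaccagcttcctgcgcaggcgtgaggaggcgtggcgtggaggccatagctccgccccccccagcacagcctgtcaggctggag
Hmgcs1 had 1 sterol element and 3 CCAAT boxes, Pmvk had 1 CCAAT box, Mvk had 5 and Acat2 had none in the bases shown. Pmvk has another start site further downstream, whose window held neither a sterol element nor a CCAAT box. Enzymes not shown here held CCAAT boxes in their windows while their log2 fold changes were negative. These were Msmo1 (3 boxes, -0.34), Tm7sf2 (1 box, -0.36) and Ebp (2 boxes, -0.13). Whether the boxes go with the direction of change was not tested.

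The D9-Cre-Bcl11b libraries held 51536311 to 70247098 counts and the Cre- libraries 47059264 to 50213377, so that every D9-Cre-Bcl11b library was the deeper. Bcl11b had 145, 141, 151 and 145 CPM in D9-Cre-Bcl11b mice, against 477, 368, 446 and 281 CPM in Cre- mice (log2 fold change -1.43, SE 0.13, adjusted p = 7.06e-05), which matches the labels. The 12 markers fixed for medium spiny neurons were all detected. At an adjusted p under 0.01 in edgeR, 5 of them fell and none rose in the D9-Cre-Bcl11b mice. Over all genes tested, 3.91% fell and 4.87% rose. Tac1 (0.47) and Pdyn (0.10) had positive log2 fold changes without passing. In bulk tissue, fewer cells of a type and less RNA per cell cannot be told apart. Choroid plexus and ependymal markers varied between dissections in both groups, with summed levels of 94.65 to 9852 CPM in D9-Cre-Bcl11b mice and 71.6 to 1730 CPM in Cre- mice, the highest in D9-Cre-Bcl11b mouse 2. Nothing in the labels gave a batch.

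Of the 31 cholesterol genes, 3 rose in the D9-Cre-Bcl11b striatum and none fell at an adjusted p under 0.01 (3.91% of all genes tested fell). The genes that rose were Sqle and Pmvk, which are enzymes of synthesis, and Abca1, the efflux pump. All 31 genes passed the filter on low counts, with 140 to 13315 counts in a library. The test was edgeR's quasi-likelihood test with Benjamini-Hochberg adjustment over the 22173 genes kept. The 3 genes are 9.68% of the set, whereas 8.78% of all genes tested passed in either direction and 4.87% passed as higher. At an unadjusted p under 0.05, 12 cholesterol genes were higher and 5 were lower, together 54.8% of the set against 29.6% of all genes tested. The count depended on the tool. At the same limit limma-voom passed the same 3 genes and none as lower, whereas DESeq2 passed 7 as higher (Hmgcs1, Mvd, Insig1 and Srebf1 beside the 3) and 2 as lower (Acat2 and Msmo1), where it passed 13.5% of all genes it tested. The fold changes were small. Their median was 0.07 on the log2 scale, against -0.0037 over all genes tested, and 22 of 31 (71%) were positive, against 49.4% of all genes. In 10 genes every D9-Cre-Bcl11b mouse was above every Cre- mouse (32.3%, against 11.7% of all genes tested), and in Acat2 every D9-Cre-Bcl11b mouse was below (3.23%, against 10.3% of all genes tested). Over both directions this was 35.5% of the set, against 22% of all genes tested. At a looser adjusted p under 0.05, 10 of the 31 genes were higher and 2 lower, against 9.08% and 8.1% of all genes tested.

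**Figure D1:**
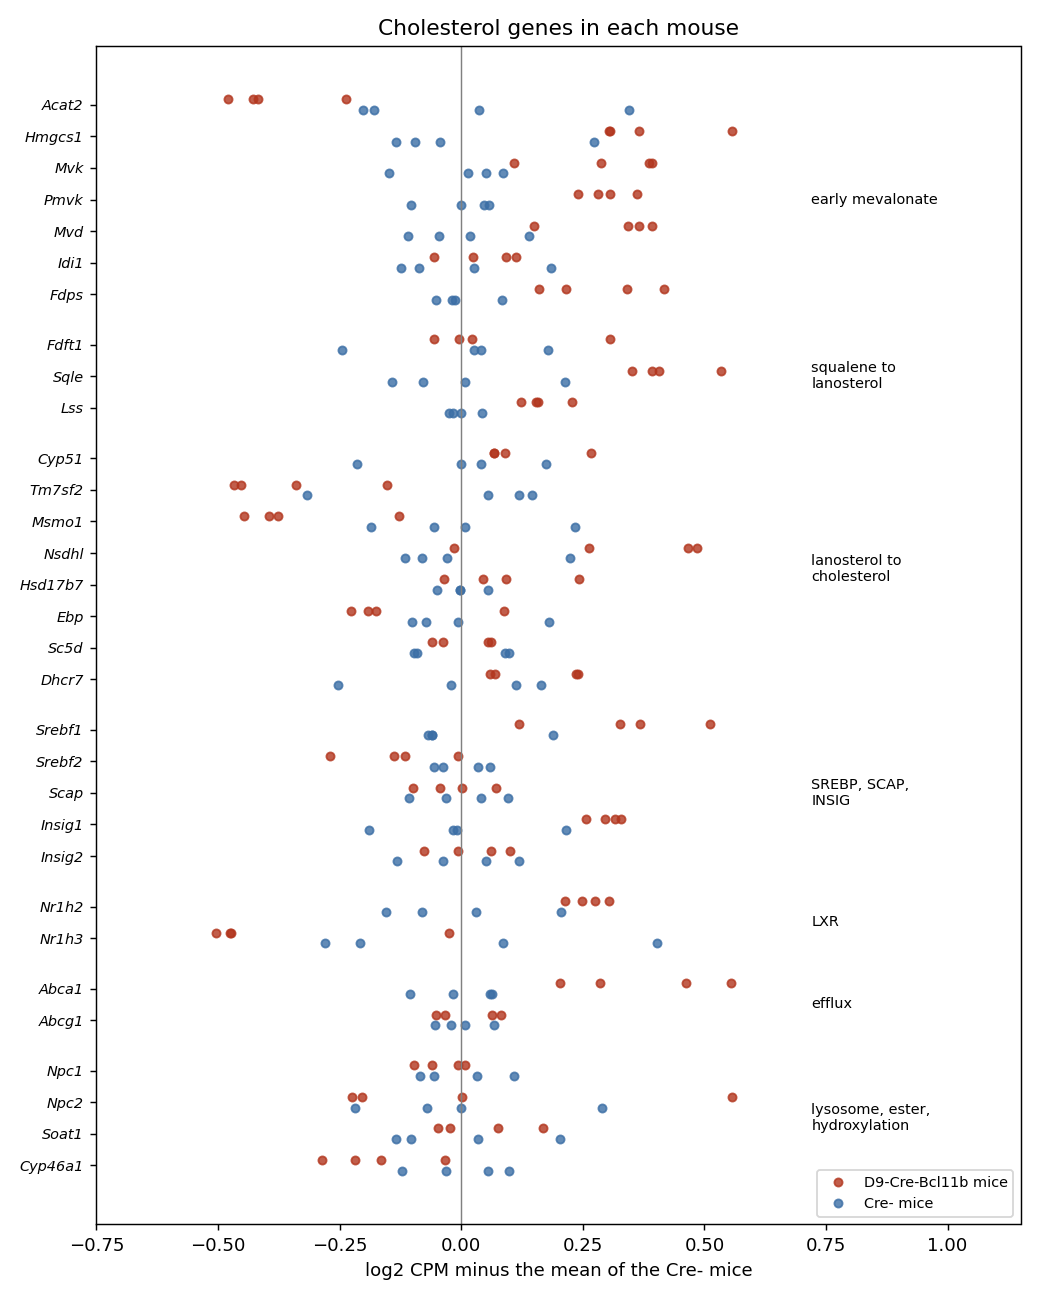
Level of each of the 31 cholesterol genes in each mouse (log2 CPM minus the mean of the Cre- mice, horizontal axis), in pathway order from top to bottom. Red points are D9-Cre-Bcl11b mice and blue points are Cre- mice, 4 each. In the early mevalonate genes except Idi1, every red point lies to the same side of every blue point, left for Acat2 and right for the others. The gap is narrow in Acat2, Hmgcs1, Mvk and Mvd. Red and blue mix in the genes from lanosterol to cholesterol.

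By role, the median fold change was higher at the head of the pathway than at its end. Of the 7 early mevalonate genes, 1 rose, 5 had every D9-Cre-Bcl11b mouse above every Cre- mouse, Acat2 had every one below, and the median log2 fold change was 0.30. Of the 3 genes from squalene to lanosterol, 1 rose and 2 had groups apart upward, with a median of 0.17. None of the 8 genes from lanosterol to cholesterol passed or had groups apart, and their median was 0.05. Among the 13 genes outside synthesis, 1 rose and the median was 0.02. Over all genes tested, 4.87% rose, 11.7% had the groups apart upward and 10.3% had them apart downward. These roles hold few genes each, and the difference between them was not tested.

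**Figure D2:**
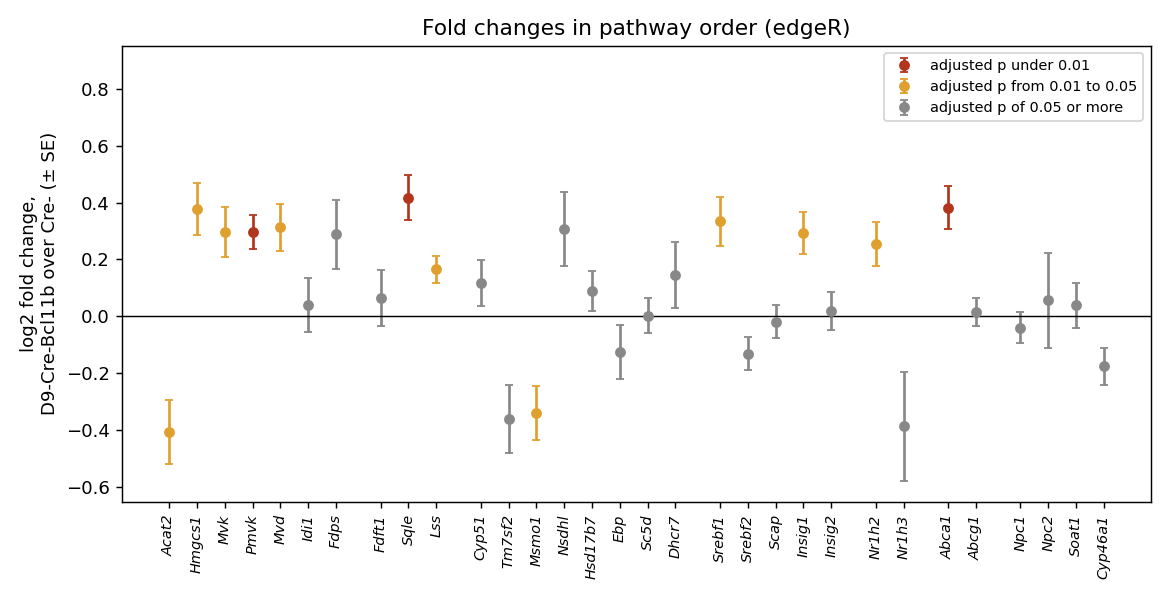
Log2 fold change of each gene, D9-Cre-Bcl11b over Cre- (vertical axis, with its standard error from edgeR), in pathway order along the horizontal axis. Red marks an adjusted p under 0.01 (Sqle, Pmvk and Abca1), orange an adjusted p from 0.01 to 0.05, of which 7 genes lie above 0 and Acat2 and Msmo1 lie below it, and grey the others.

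Sqle, squalene epoxidase, adds the first oxygen of the sterol ring system and is a rate-limiting step after mevalonate. Sqle (chromosome 15, 59315077 to 59331192, GRCm38) had 47.9, 49.3, 49.8 and 54.4 CPM in D9-Cre-Bcl11b mice, against 35.6, 37.8, 34.0 and 43.5 CPM in Cre- mice. All 4 D9-Cre-Bcl11b mice were above all 4 Cre- mice, of which mouse 4 was the closest. Sqle averaged 50.4 ± 2.83 CPM in D9-Cre-Bcl11b mice and 37.7 ± 4.17 CPM in Cre- mice (SD, n = 4 each), a fold of 1.33 (log2 0.42, SE 0.08, adjusted p = 0.0047). The call was lost without D9-Cre-Bcl11b mouse 1, 3 or 4 or Cre- mouse 1, 2 or 3 (adjusted p 0.0105 to 0.0165) and held without D9-Cre-Bcl11b mouse 2 or Cre- mouse 4, while the log2 fold change stayed between 0.37 and 0.50.

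Pmvk, phosphomevalonate kinase, adds the second phosphate to mevalonate. Pmvk (chromosome 3, 89454541 to 89469013) had 31.4, 32.3, 32.8 and 34.1 CPM in D9-Cre-Bcl11b mice, against 26.6, 24.7, 27.4 and 27.6 CPM in Cre- mice. The groups were well apart, with little spread within either. Pmvk averaged 32.7 ± 1.16 CPM in D9-Cre-Bcl11b mice and 26.6 ± 1.32 CPM in Cre- mice (SD, n = 4 each), a fold of 1.23 (log2 0.30, SE 0.06, adjusted p = 0.00576). Of the 8 fits that left out 1 mouse, only the one without Cre- mouse 4 kept the call. Each of the others gave an adjusted p of 0.0116 to 0.022, with log2 fold changes of 0.26 to 0.32 over the 8.

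Abca1 pumps cholesterol and phospholipid onto apolipoprotein E and is a standard LXR target. Abca1 (chromosome 4, 53030787 to 53159895) had 191, 158, 179 and 150 CPM in D9-Cre-Bcl11b mice, against 129, 136, 121 and 136 CPM in Cre- mice. The lowest D9-Cre-Bcl11b mouse was above the highest Cre- mouse, and the D9-Cre-Bcl11b mice were the more spread. The means were 170 ± 18.9 CPM in D9-Cre-Bcl11b mice and 130 ± 7.06 CPM in Cre- mice (SD, n = 4 each), a fold of 1.30 (log2 0.38, SE 0.08, adjusted p = 0.00618). The call was lost without D9-Cre-Bcl11b mouse 1 or 3 or Cre- mouse 1, 2 or 3 (adjusted p 0.014 to 0.0234), at log2 fold changes of 0.32 to 0.44 over all 8 fits.

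**Figure D3:**
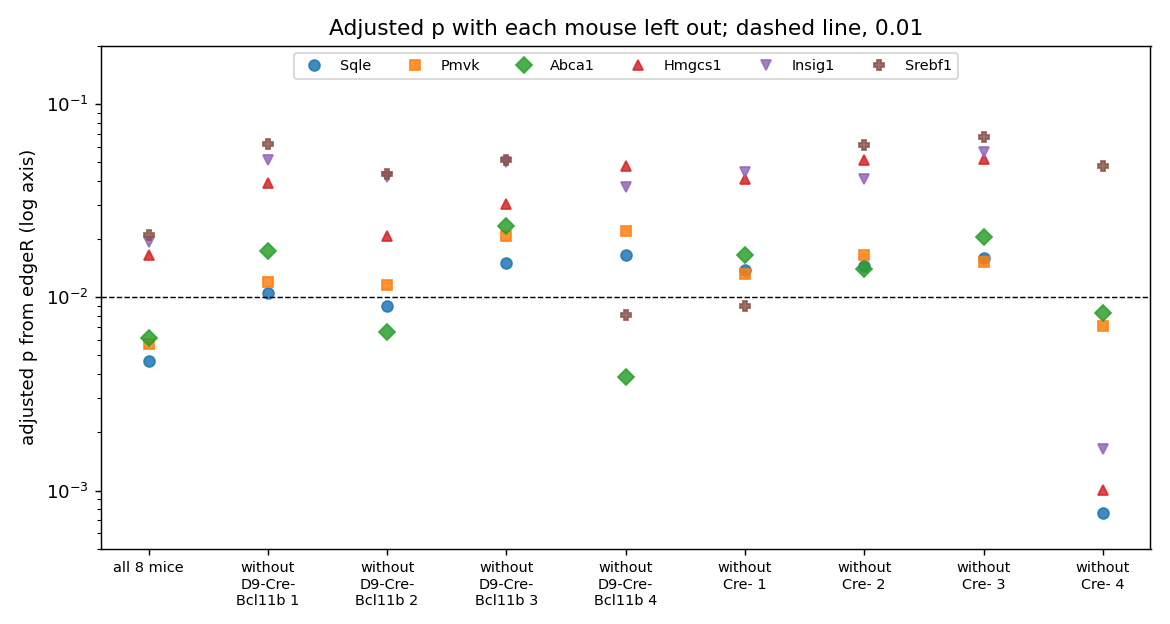
Adjusted p from edgeR (vertical log axis) for 6 genes with all 8 mice and with each mouse left out in turn (horizontal axis). Points under the dashed line, at 0.01, passed. Sqle passed in 2 of the 8 fits, Pmvk in 1 and Abca1 in 3, and Hmgcs1 and Insig1 passed without Cre- mouse 4 only.

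The other early enzymes lay mostly above the Cre- mice without passing the limit in edgeR, while DESeq2 passed Hmgcs1 (adjusted p = 0.00174) and Mvd (adjusted p = 0.0056) as higher and Acat2 (adjusted p = 0.00597) as lower. Hmgcs1 makes HMG-CoA, the precursor of mevalonate. Hmgcs1 (chromosome 13, 119690379 to 119708260) had 153, 147, 147 and 175 CPM in D9-Cre-Bcl11b mice, against 115, 111, 108 and 144 CPM in Cre- mice. Mouse 4 was the highest of either group, and the groups did not overlap. Hmgcs1 averaged 155 ± 13.3 CPM in D9-Cre-Bcl11b mice and 120 ± 16.3 CPM in Cre- mice (SD, n = 4 each), with a log2 fold change of 0.38 (SE 0.09, adjusted p = 0.0166). Without Cre- mouse 4 it was 0.48, with an adjusted p of 0.00101. A gene on the opposite strand, Gm48342, shares 13.6% of the 50-base stretches of its longest transcript, at a level of about 1 CPM.

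Mvk, mevalonate kinase, had 14.6, 17.8, 16.5 and 17.7 CPM in D9-Cre-Bcl11b mice, against 13.7, 12.2, 14.4 and 14.0 CPM in Cre- mice. Its groups were apart by a narrow gap between D9-Cre-Bcl11b mouse 1 and Cre- mouse 3, and the log2 fold change was 0.30 (SE 0.09, adjusted p = 0.0418). Mvd, which removes carbon dioxide to give the first isoprene unit, had 18.6, 16.0, 18.3 and 18.9 CPM in D9-Cre-Bcl11b mice, against 14.6, 13.9, 13.3 and 15.9 CPM in Cre- mice. Here too the groups only just separated (log2 fold change 0.31, SE 0.08, adjusted p = 0.0242). Fdps joins isoprene units to farnesyl diphosphate and had the lowest level per length of all 31 genes, 1.09 and 0.888 CPM per kilobase of annotated exon in D9-Cre-Bcl11b and Cre- mice. Fdps had 4.18, 5.0, 4.34 and 4.74 CPM in D9-Cre-Bcl11b mice, against 3.96, 3.60, 3.70 and 3.69 CPM in Cre- mice (log2 fold change 0.29, SE 0.12, adjusted p = 0.144). The groups were apart, and 26.7% of the Fdps exons overlap Gm43738 on the same strand. Fdps also shares 11.7% of its 50-base stretches with other loci, so its level and rank could be affected by how such reads were counted. Idi1, isopentenyl diphosphate isomerase, showed a log2 fold change of 0.04 (adjusted p = 0.831) and shares 30.5% of its 50-base stretches with other loci.

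Acat2 went the other way. The gene encodes the cytosolic thiolase that joins acetyl-CoA molecules at the head of the pathway. Acat2 (chromosome 17, 12942890 to 12960747) had 37.1, 36.9, 35.6 and 42.1 CPM in D9-Cre-Bcl11b mice, against 63.1, 43.8, 50.9 and 43.1 CPM in Cre- mice. Every D9-Cre-Bcl11b mouse was below every Cre- mouse, by a narrow gap between mouse 4 of each group, and Cre- mouse 1 was far above the rest. The log2 fold change was -0.41 (SE 0.11, adjusted p = 0.0319), and -0.28 without Cre- mouse 1 (adjusted p = 0.0439). Acat2 shares 45.9% of its 50-base stretches with Acat3 and Tcp1, so its counts could be split between them. Acat3, 2.29 kb away, had 4.58 CPM in D9-Cre-Bcl11b mice and 4.95 CPM in Cre- mice (log2 fold change -0.11, adjusted p = 0.72).

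**Figure D4:**
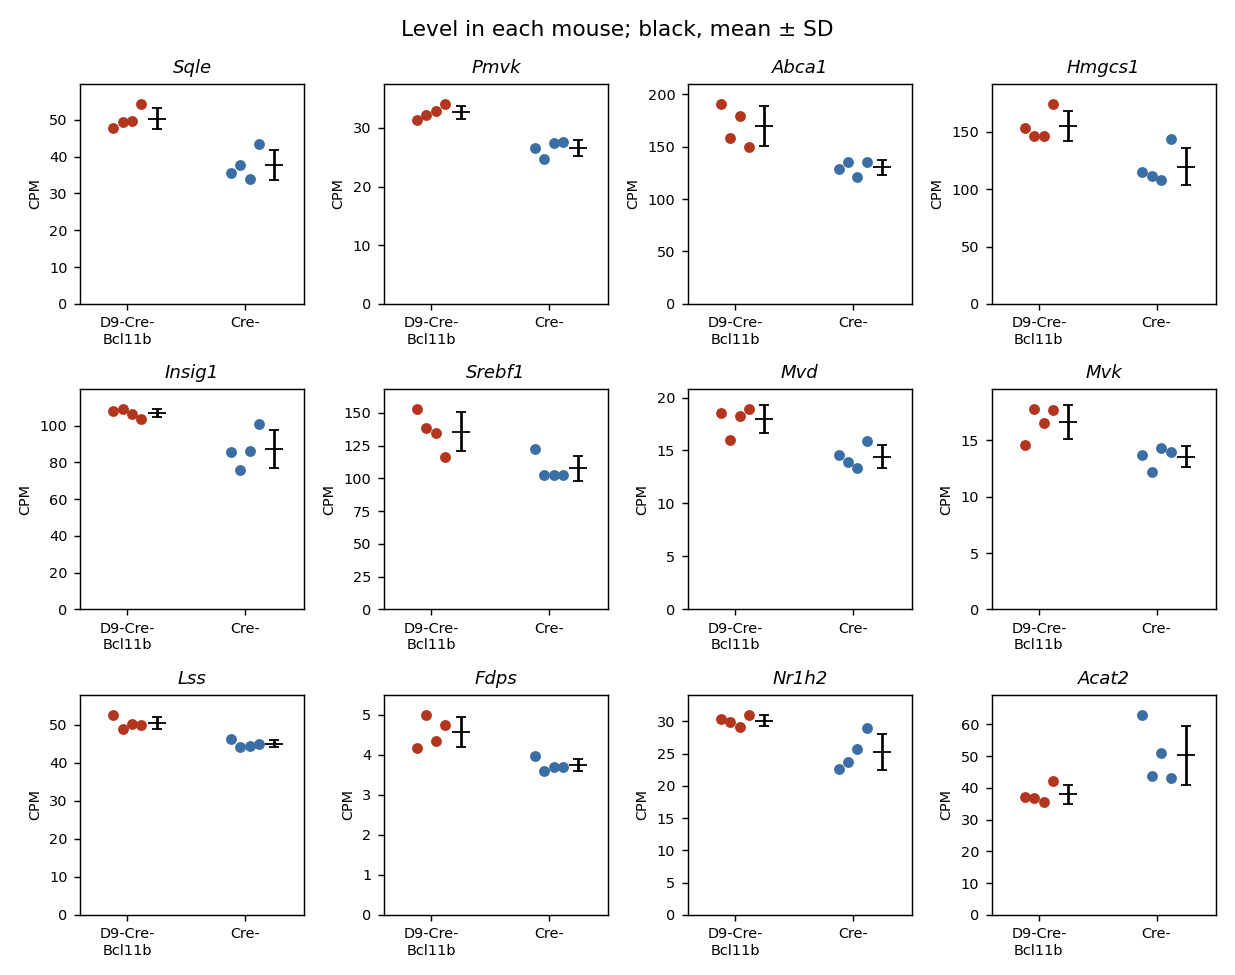
CPM in each mouse (vertical axes from 0) for the 11 genes whose groups do not overlap and for Srebf1. Red points on the left of each panel are the 4 D9-Cre-Bcl11b mice, blue points on the right are the 4 Cre- mice, and the black marks are the mean ± SD of each group. Acat2 is the gene with red below blue.

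After squalene, Lss closes the ring to lanosterol. Lss had 52.7, 49.0, 50.2 and 50.1 CPM in D9-Cre-Bcl11b mice, against 46.4, 44.2, 44.5 and 45.0 CPM in Cre- mice. The spread within each group was small and the groups did not overlap, at a log2 fold change of only 0.17 (SE 0.05, adjusted p = 0.0366). Fdft1, squalene synthase, had 70.2 CPM in D9-Cre-Bcl11b mice and 67.1 CPM in Cre- mice (log2 fold change 0.07, adjusted p = 0.718). Its exons overlap Ctsb on the opposite strand, and whether counting used strand is not given in the sources used here.

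From lanosterol on, the 8 enzymes had fold changes of both signs. Msmo1, which removes methyl groups at position C4, had 77.2, 76.2, 73.5 and 91.8 CPM in D9-Cre-Bcl11b mice, against 118, 96.4, 88.1 and 101 CPM in Cre- mice. D9-Cre-Bcl11b mouse 4 overlapped Cre- mouse 3, and the log2 fold change was -0.34 (SE 0.09, adjusted p = 0.0296, and 0.00804 with DESeq2). Tm7sf2, a sterol reductase, showed a log2 fold change of -0.36 (adjusted p = 0.0636), which became -0.52 (adjusted p = 0.00905) without mouse 4 of both groups. Of the Tm7sf2 exons, 12.1% overlap Vps51 on the same strand. Nsdhl acts in the same demethylation complex as Msmo1 and showed a log2 fold change of 0.31 (adjusted p = 0.138), opposite in sign. The other 5 enzymes had adjusted p-values of 0.372 to 0.985. Cyp51, the lanosterol demethylase, showed a log2 fold change of 0.12 (adjusted p = 0.372), Dhcr7, the last reductase, 0.15 (adjusted p = 0.465), and Hsd17b7, a ketosteroid reductase, 0.09 (adjusted p = 0.447). Ebp, an isomerase, had -0.13 (adjusted p = 0.439), and Sc5d, a desaturase, 0.0027 (adjusted p = 0.985).

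None of the 5 genes of the SREBP system passed the limit in edgeR, while DESeq2 passed Srebf1 (adjusted p = 0.00403) and Insig1 (adjusted p = 0.00492) as higher. Without the filter on low counts edgeR also passed both (adjusted p = 0.00598 for Srebf1 and 0.00804 for Insig1). Srebf1, whose product drives mainly fatty acid genes and is itself an LXR target, had 153, 138, 134 and 116 CPM in D9-Cre-Bcl11b mice, against 122, 103, 103 and 102 CPM in Cre- mice. The groups overlapped through D9-Cre-Bcl11b mouse 4 and Cre- mouse 1, and the log2 fold change was 0.33 (SE 0.09, adjusted p = 0.021). Leaving out either of those mice brought Srebf1 past the limit (adjusted p = 0.00806 without D9-Cre-Bcl11b mouse 4 and 0.00907 without Cre- mouse 1). Insig1, which holds SCAP back and is among the most sterol-responsive SREBP targets, had 108, 109, 107 and 104 CPM in D9-Cre-Bcl11b mice, against 85.8, 76.0, 86.2 and 101 CPM in Cre- mice. The D9-Cre-Bcl11b mice were within a few CPM of each other and above all Cre- mice, with Cre- mouse 4 close behind (log2 fold change 0.29, SE 0.07, adjusted p = 0.0193). Without Cre- mouse 4 the adjusted p of Insig1 was 0.00165. Srebf2, the factor for sterol synthesis genes, averaged 147 ± 11.0 CPM in D9-Cre-Bcl11b mice and 161 ± 6.20 CPM in Cre- mice (SD, n = 4 each), with a log2 fold change of -0.13 (SE 0.06, adjusted p = 0.163). Scap (-0.02, adjusted p = 0.875) and Insig2 (0.02, adjusted p = 0.891) had log2 fold changes under their standard errors.

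Neither LXR receptor passed with all 8 mice. Nr1h2, which encodes LXR beta, had 30.4, 29.9, 29.2 and 31.05 CPM in D9-Cre-Bcl11b mice, against 22.6, 23.8, 25.7 and 29.0 CPM in Cre- mice. The groups were apart by less than 1 CPM, between D9-Cre-Bcl11b mouse 3 and Cre- mouse 4 (log2 fold change 0.25, SE 0.08, adjusted p = 0.0464). Without Cre- mouse 4, Nr1h2 passed (log2 fold change 0.34, adjusted p = 0.00634). Nr1h3, for LXR alpha, was expressed at 2.98 CPM in D9-Cre-Bcl11b mice and 3.89 CPM in Cre- mice, with a log2 fold change of -0.39 and a wide error (SE 0.19, adjusted p = 0.209), and it was -0.23 without Cre- mouse 1. Abcg1 is the other LXR-driven efflux pump in the set. Abcg1 had 168 CPM in D9-Cre-Bcl11b mice and 167 CPM in Cre- mice, a log2 fold change of 0.02 (SE 0.05, adjusted p = 0.872). The difference between the fold changes of the pumps was not tested.

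Genes for lysosomal export, storage and removal did not pass. Npc1 and Npc2 hand cholesterol out of the lysosome, Soat1 esterifies it, and Cyp46a1 hydroxylates it for export from the brain. Cyp46a1 had the highest level per length of the 31 genes, 37.0 CPM per kilobase of exon in D9-Cre-Bcl11b mice and 41.8 in Cre- mice. Cyp46a1 had 134, 112, 122 and 118 CPM in D9-Cre-Bcl11b mice, against 147, 134, 142 and 126 CPM in Cre- mice. Those ranges overlap in D9-Cre-Bcl11b mouse 1, and the log2 fold change was -0.17 (SE 0.07, adjusted p = 0.0982). Cyp46a1 lies 331 kb from Bcl11b on chromosome 12, where both groups carry the floxed allele. Npc2 had 60.7, 104, 71.1 and 61.7 CPM in D9-Cre-Bcl11b mice, against 86.7, 61.0, 67.6 and 70.9 CPM in Cre- mice. Its highest values were in the mice with the highest choroid plexus and ependymal marker sums in each group, D9-Cre-Bcl11b mouse 2 (9852 CPM) and Cre- mouse 1 (1730 CPM). The log2 fold change of Npc2 was 0.06 (SE 0.17, adjusted p = 0.864) and became -0.15 without D9-Cre-Bcl11b mouse 2, and the part of these markers in it was not tested. Npc1 (-0.04, adjusted p = 0.682) and Soat1 (0.04, adjusted p = 0.796) were close to 0 on the log2 scale.

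Mice of the same group differed in the level of the synthesis genes. D9-Cre-Bcl11b mouse 4 was the highest of its group for 12 of the 18 synthesis enzymes. Among Cre- mice, mouse 4 was the highest for 9 and mouse 1 for 7. The 18 enzymes summed to 705, 704, 701 and 795 CPM in D9-Cre-Bcl11b mice, against 715, 634, 652 and 729 CPM in Cre- mice. The sums overlapped, since Cre- mice 1 and 4 lay above 3 of the 4 D9-Cre-Bcl11b mice. The sum is led by the most abundant genes, while the median deviation of the 18 enzymes from their Cre- mean, on the log2 scale, was 0.05, 0.10, 0.13 and 0.25 in D9-Cre-Bcl11b mice, against 0.03, -0.07, -0.02 and 0.07 in Cre- mice. Cre- mouse 1, the highest of its group for 16 of all 31 genes, also had the most oligodendrocyte marker RNA, 9321 CPM against 5956 to 7270 CPM in the other Cre- mice and 6272 to 7376 CPM in D9-Cre-Bcl11b mice. The mice numbered 4, which led the synthesis genes in each group, had the highest sums of the 10 cortical excitatory neuron markers, 265 CPM in D9-Cre-Bcl11b mouse 4 against 123 to 179 CPM in the others of its group, and 276 CPM in Cre- mouse 4 against 164 to 196 CPM in the others of its group. Slc17a7, the vesicular glutamate transporter of cortical neurons, had 8.87, 7.32, 31.9 and 91.9 CPM in D9-Cre-Bcl11b mice, against 19.5, 11.0, 16.9 and 90.1 CPM in Cre- mice. Without both of these mice, a setting added after the data were seen, 4 of the 31 genes were higher (Hmgcs1, Sqle, Insig1 and Abca1) and 1 was lower (Tm7sf2), beside 6.28% of all genes tested in either direction, and Pmvk did not pass (log2 fold change 0.30, adjusted p = 0.0233). The part of the oligodendrocyte and cortical markers in the cholesterol gene levels was not tested beyond this.

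Genes of neighbouring pathways, listed with earlier results known, were counted by the same test. None of 8 other sterol synthesis genes passed, with a median log2 fold change of 0.01. Among them, Cyb5r3, an electron donor to sterol oxidases, had a log2 fold change of 0.27 with an adjusted p of 0.0468. None of 8 sterol sensing and SREBP processing genes passed either. Mbtps1, the first protease to cut SREBP, had 128 CPM in D9-Cre-Bcl11b mice and 152 CPM in Cre- mice (log2 fold change -0.25, adjusted p = 0.0129), and Sec24d, of the COPII coat that carries SCAP, showed a log2 fold change of -0.33 (adjusted p = 0.0566). None of 16 uptake and lipoprotein genes passed, with a median log2 fold change of 0.08.

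Of 27 genes for sterol transfer, efflux and oxysterols, 25 were tested, 3 rose, 3 fell and 19 did not pass, beside 4.87% higher and 3.91% lower over all genes tested. Stard4, a cytosolic sterol carrier and an SREBP target, rose to 41.9 ± 4.26 CPM in D9-Cre-Bcl11b mice, against 30.2 ± 2.61 CPM in Cre- mice (SD, n = 4 each; log2 fold change 0.47, adjusted p = 0.00388). Nceh1, which hydrolyses cholesteryl ester, rose to 185 CPM in D9-Cre-Bcl11b mice, against 150 CPM in Cre- mice (log2 fold change 0.30, adjusted p = 0.00403). Osbpl5, a lipid exchanger of the endoplasmic reticulum, had 20.9 CPM in D9-Cre-Bcl11b mice and 16.4 CPM in Cre- mice (0.35, adjusted p = 0.00777). Osbpl8, a lipid exchanger of the same family as Osbpl5, fell to 551 ± 7.60 CPM in D9-Cre-Bcl11b mice, against 765 ± 67.2 CPM in Cre- mice (SD, n = 4 each; log2 fold change -0.47, adjusted p = 8.33e-04). Gramd1b, which moves cholesterol from the plasma membrane to the endoplasmic reticulum, had 86.2 CPM in D9-Cre-Bcl11b mice and 107 CPM in Cre- mice (-0.31, adjusted p = 0.00126), and Osbp, the founding sterol exchanger of its family, had 70.3 CPM in D9-Cre-Bcl11b mice and 90.5 CPM in Cre- mice (-0.37, adjusted p = 0.00165). In all 6 the groups did not overlap, beside 22% of all genes tested. The 6 were picked by the test on these same values, so this adds no support.

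Among 15 genes of fatty acid synthesis 1 rose, beside 4.87% of all genes tested. It was Acaca, the acetyl-CoA carboxylase that commits carbon to fatty acids. Acaca had 125, 118, 132 and 130 CPM in D9-Cre-Bcl11b mice, against 69.0, 88.1, 91.1 and 105 CPM in Cre- mice, with every D9-Cre-Bcl11b mouse the higher (log2 fold change 0.52, SE 0.10, adjusted p = 0.00623). Of 13 genes of the branch that makes ubiquinone, dolichol and prenyl groups from the same isoprene units, 1 rose, beside the same 4.87%. Dhdds, a subunit of the dolichol-making enzyme, had 38.7 CPM in D9-Cre-Bcl11b mice and 31.3 CPM in Cre- mice (log2 fold change 0.31, adjusted p = 0.00481).

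**Figure D5:**
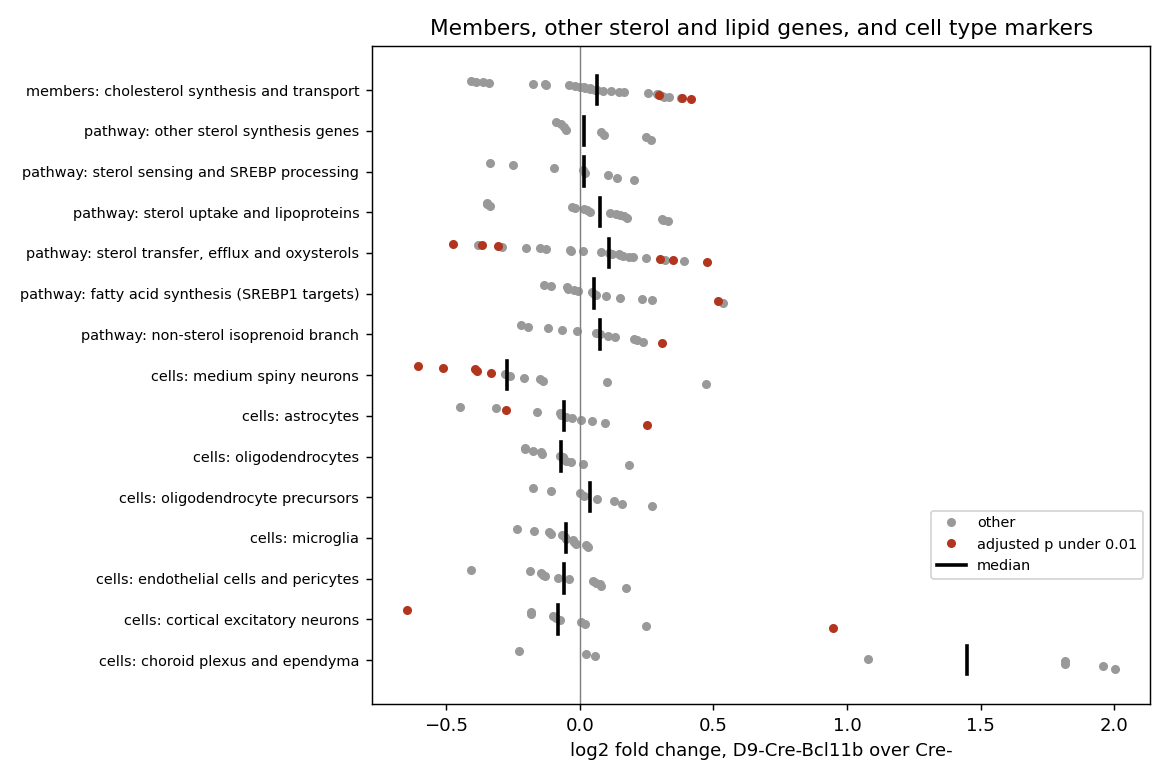
Log2 fold change, D9-Cre-Bcl11b over Cre- (horizontal axis), of each tested gene in the 31 cholesterol genes, in 6 lists of related genes and in 8 lists of cell type markers. Red points passed at an adjusted p under 0.01 and black bars are medians, 0.07 for the cholesterol genes, -0.27 for medium spiny neuron markers and 1.45 for choroid plexus and ependymal markers.

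Markers of the cells that make most brain cholesterol were counted in the same way, beside 8.78% of all genes tested that passed in either direction. None of 12 oligodendrocyte markers passed (median log2 fold change -0.07), with summed levels of 6272 to 7376 CPM in D9-Cre-Bcl11b mice and 5956 to 9321 CPM in Cre- mice. Mobp and Ugt8a, of myelin and its lipids, had the smallest p-values, each with a log2 fold change of -0.20. Of 12 astrocyte markers, Fgfr3 rose (0.25, adjusted p = 0.00999) and Slc4a4 fell (-0.27, adjusted p = 0.00663), and the summed levels were 3937 to 4762 CPM in D9-Cre-Bcl11b mice and 4258 to 4693 CPM in Cre- mice. Medium spiny neuron markers summed to 6907 to 7658 CPM in D9-Cre-Bcl11b mice and 7994 to 9230 CPM in Cre- mice, without overlap. Among them, Ppp1r1b, the gene whose elements drive Cre, fell to 569 CPM in D9-Cre-Bcl11b mice, against 811 CPM in Cre- mice, and Drd2, the dopamine receptor of indirect pathway neurons, fell to 61.2 CPM in D9-Cre-Bcl11b mice, against 93.0 CPM in Cre- mice. The other 3 that fell were Penk, Pde10a and Foxp1. Tac1, the substance P precursor of direct pathway neurons, had the opposite sign without passing, with 585 CPM in D9-Cre-Bcl11b mice and 422 CPM in Cre- mice (log2 fold change 0.47, adjusted p = 0.0365), and Pdyn, the dynorphin precursor, was at 0.10 (adjusted p = 0.843). None of 8 oligodendrocyte precursor, 12 microglial and 12 endothelial and pericyte markers passed, and 1 of 10 cortical neuron markers rose (Cux2) and 1 fell (Nrgn). None of 8 choroid plexus and ependymal markers passed, with Ttr at 261, 9409, 1791 and 38.3 CPM in D9-Cre-Bcl11b mice, against 1598, 17.4, 299 and 956 CPM in Cre- mice, so that the groups overlapped widely. No marker on these lists was at 0 in all libraries, and their part in the levels of the cholesterol genes was not tested.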

How the data were processed

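Striatal RNA from 8 mice (4 D9-Cre-Bcl11b, 4 Cre-) was depleted of ribosomal RNA and sequenced as paired ends. The submitters' processing notes name Trim Galore 0.6.4, STAR 2.7.2b and featureCounts, with builds GRCm38.p6, mm10 and GRCh38.p6. The authors deposited raw counts per gene symbol, which were used, and a log2 table, which was not. Whether counting used strand is not given in the sources used here, so reads of antisense or near-identical genes cannot be separated. Counts were filtered with filterByExpr (minimum count 10, total 15), scaled by TMM and tested with edgeR 4.0.16 (R 4.3.3), group alone, with adjustment over 22173 genes and a limit of 0.01. DESeq2 1.42.0 and limma-voom 3.58.1 were alternatives, and the edgeR, DESeq2 and limma-voom fits were tested on simulated counts. Log2 levels used a prior count of 2. Libraries held 47059264 to 70247098 counts. Between mice of a group, the variance averaged over genes was 13.1 to 64.5 times that of counting. The average need not hold for each gene, and for genes with few counts depth may also limit the precision. Nothing states that the mice were litter-matched, and p-values measure only the spread between these mice. Named genes were all 31 members, Bcl11b, genes of each pathway list past the limit (otherwise the 2 with the smallest p) and the 2 marker genes with the smallest p per cell type. Acat3, Slc17a7 and the other medium spiny neuron markers were added after their values were seen, and some genes that this rule names are not reported here. The members and lists were chosen with earlier results of these data known. Loci are from GENCODE M21 (GRCm38).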

Additional observations from a re-analysis of the deposited data

Results flagged for a closer look

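In 4 of the 64 groups of 4 values examined (31 genes and Bcl11b, in each group of mice), 1 mouse lay far from the other 3, and chance flags about 1 group in 20. Cyp51 was at 77.9 CPM in D9-Cre-Bcl11b mouse 4, against 67.9 to 69 CPM in the other D9-Cre-Bcl11b mice. Ebp was at 16.6 CPM in D9-Cre-Bcl11b mouse 2, against 13.3 to 13.8 CPM in the others of its group. Nr1h3 was at 3.76 CPM in the same mouse, against 2.69 to 2.75 CPM, and that library also held the most choroid plexus and ependymal marker RNA (9852 CPM), whose part in these values was not tested. Srebf1 was at 122 CPM in Cre- mouse 1, against 102 to 103 CPM in the other Cre- mice.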

How the results depend on the processing

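The 3 calls of Sqle, Pmvk and Abca1 were kept under limma-voom, both other scalings, the stricter filter of 1 CPM in 4 mice, robust dispersion and thinning to the smallest library. DESeq2 passed 3204 genes, against 1947 with edgeR, and 7 cholesterol genes as higher and 2 as lower, beside 13.5% of all genes it tested. At an adjusted p under 0.05, 3810 genes passed, with 10 cholesterol genes higher and 2 lower, beside 9.08% and 8.1% of all genes tested. With no filter on low counts, 6 were higher, adding Hmgcs1, Insig1 and Srebf1 (5.72% of all genes passed). With 1 mouse left out, 1102 to 2066 genes passed (1169, 1127 and 1285 without D9-Cre-Bcl11b mouse 1, 3 and 4), and 0 to 6 cholesterol genes were higher, with 0 without D9-Cre-Bcl11b mouse 1 or 3 or Cre- mouse 2 or 3, 1 without Cre- mouse 1 and 6 without Cre- mouse 4, beside 4.86% to 9.07% of all genes. The median log2 fold change of the 31 genes was 0.048 to 0.12 with 1 mouse left out, the highest without Cre- mouse 4 (0.1195). Without both mice numbered 4, chosen after seeing the data, 1413 genes passed, 4 cholesterol genes were higher and 1 was lower, and the median was 0.1357. Whether mouse numbers pair the samples is not stated. Correlations of same-numbered mice were -0.234 to 0.0623, which cannot decide this with 4 mice per group. With the replicate block 1165 genes passed, 5.25% of all genes tested in either direction. In that fit 3 cholesterol genes were higher, which were Hmgcs1, Sqle and Srebf1, while Pmvk (adjusted p = 0.0163) and Abca1 (adjusted p = 0.0238) did not pass. Signs turned only in genes near 0: Sc5d was -0.007844 with library sizes alone, and with 1 mouse left out the ranges were -0.02953 to 0.04018 for Sc5d, -0.02432 to 0.05974 for Insig2, -0.04735 to 0.01533 for Scap, -0.00544 to 0.03857 for Abcg1, -0.1498 to 0.1627 for Npc2, -0.002667 to 0.1195 for Soat1, and -0.01953 to 0.1344 for Fdft1. The causes were not tested.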
